A study of Macaca mulatta with 60 samples.

Results

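SNORD52, SNORD74 and SNORD81 are small nucleolar RNAs (snoRNAs) of the box C/D class. They were measured here as 3 of the 26149 transcripts on a rhesus macaque array, by the rows ENSMMUT00000033757 for SNORD52, ENSMMUT00000035286 for SNORD74 and ENSMMUT00000048699 for SNORD81. The 3 rows were chosen by the measured difference between BPA exposed and control fetuses, since the study's tables of BPA responsive transcripts name them: SNORD74 in the left ventricle in early gestation, SNORD52 in the right ventricle in early gestation and SNORD81 in the left ventricle in late gestation. Those 3 contrasts are therefore given below as a description, with no test. All 3 rows had a value on each of the 60 arrays.

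Box C/D snoRNAs pair with ribosomal RNA by a short antisense stretch next to their D or D′ box and so direct the methylation of the ribose of 1 nucleotide. They act in a particle with the methyltransferase fibrillarin and the core proteins NOP56, NOP58 and SNU13. In vertebrates most of them are not transcribed alone but are cut from the introns of a host gene during splicing. SNORD74 and SNORD81 lie in different introns of GAS5, a spliced host RNA with little coding capacity that encodes a whole series of box C/D snoRNAs, SNORD77 and SNORD78 among them. SNORD52 comes from another host, named SNHG32 in human. A probe inside a snoRNA also detects the unspliced host transcript that holds it, so the values below are not levels of the mature snoRNA alone.

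The arrays held 5 tissues of 12 female rhesus fetuses, namely the ventricles on the left (LV) and right (RV), the atria on the left (LA) and right (RA), and biceps femoris muscle (BFM). The dams ate a piece of fruit each day with bisphenol A (BPA, 400 µg/kg body weight) in ethanol or, for the controls, with ethanol alone. In early gestation (EG) this ran from day 50 to day 100 ± 2, with fetuses 1 to 3 as controls and fetuses 4 to 6 exposed, and in late gestation (LG) from day 100 ± 2 to term, with fetuses 7 to 9 as controls and fetuses 10 to 12 exposed. Caesarian section was used to obtain the EG fetuses, and the LG fetuses were collected at necropsy after vaginal delivery, so gestational age and the way of delivery cannot be told apart. A fetus keeps its number in every tissue. LV and RV cDNA was not amplified, LA and RA cDNA was amplified by PCR, each heart chamber had a slide of its own, and the preparation of BFM is not described in the sources used here.

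All levels are log2 values normalized within a tissue by the authors, so a level can be set against other fetuses of the same tissue, but not against another tissue or another probe. The medians of single arrays spanned 6.24 to 6.66 in the ventricles, 6.91 to 7.11 in the atria and 7.61 to 7.74 in BFM. On the LV arrays 71 to 810 transcripts stood at the lowest value of their array, against 1 or 2 on the arrays of the other tissues. MYH6, the alpha myosin heavy chain of cardiac muscle, which in large mammals is mainly an atrial protein, lay at percentiles of 99.8 to 99.9 on every atrial array, of 41.5 to 99.9 on the RV arrays (median 97.7), with a median of 53.5 on the LV arrays, and of 31.7 to 83.3 on the BFM arrays, the last being LG control fetus 8. By this marker single ventricular arrays were thus not set apart from BFM. In whole tissue, fewer cells of a type and less RNA per cell cannot be told apart.

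Where the values lie on an array is given as a percentile among its transcripts, which says nothing of the order of probes or tissues in level. SNORD52 had median percentiles of 47.4 (BFM), 52.5 (LV), 65.3 (RV), 54.6 (LA) and 60.1 (RA). In the same order of tissues SNORD74 had 53.0, 61.6, 53.5, 66.0 and 65.5, and SNORD81 had 5.94, 37.3, 11.7, 34.3 and 30.5. The interquartile range over the 12 fetuses takes in the groups of the listed contrasts, so the tissue in which a snoRNA is listed is left out here. In the other tissues, that of SNORD52 was wider than that of 94.0% to 98.9% of the transcripts and that of SNORD74 wider than 97.3% to 99.5%. For SNORD81 it was wider than 97.3% to 99.7% in RV, LA and RA, while in BFM its interquartile range was 0.436, wider than that of 59.4%. SNORD81 in BFM was thus the 1 case below the variation filter of 0.5, and it is read from a fit over all 26149 transcripts.

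Each snoRNA was compared between BPA and control in EG and in LG, and between LG and EG in controls and in exposed fetuses, which over 5 tissues makes 60 comparisons. By the study's criteria, a comparison was called where the log2 fold change was 1 or more in either direction and the p of limma, before adjustment, was no higher than 0.01. Of the 60, 3 were the listed contrasts and 6 share a group of arrays with one of them, and these 9 are described without a test. Of the other 51, 5 were called, 2 for SNORD52, 3 for SNORD81 and 0 for SNORD74 (limma). The share of all transcripts called was 0.267% for BPA in EG BFM, where SNORD52 was called, and 0.111% for the same comparison without the filter, where SNORD81 was called. The other 3 calls were changes from EG to LG, where the share was 23.1% in BFM exposed fetuses (SNORD52), 8.93% in BFM controls without the filter (SNORD81) and 5.47% in RA controls (SNORD81). An adjusted p of at most 0.05 was reached by 2 of the 51, SNORD52 in BFM exposed fetuses, as for 49.5% of the transcripts, and SNORD81 in BFM controls, as for 18.2%. These 51 come from the same 12 fetuses as the listed contrasts and so are not independent of them.

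**Figure D1:**
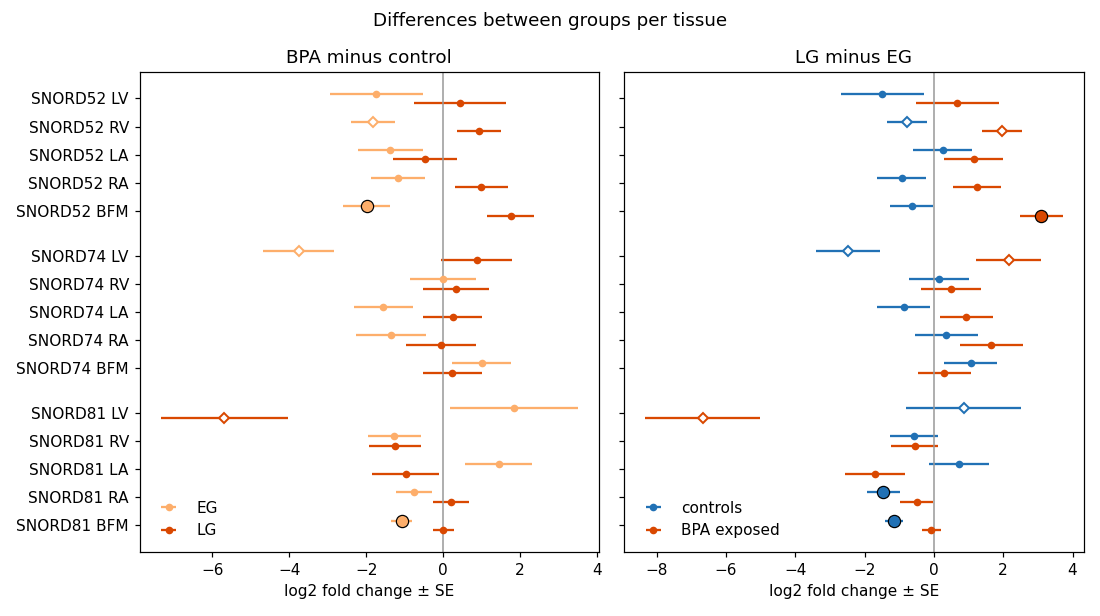
Log2 fold changes ± SE of the 3 snoRNAs in each tissue, BPA minus control on the left (EG pale, LG dark) and LG minus EG on the right (controls blue, BPA exposed fetuses red). Open diamonds mark the listed contrasts and those that share a group with them, and large points with a black edge mark the 5 called comparisons of SNORD52 in BFM and of SNORD81 in RA and BFM.

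The SNORD52 level in the EG group was lower with BPA in the 4 tissues other than RV, by 1.18 to 1.99 on the log2 scale, and in exposed fetuses of these 4 it was higher in LG than in EG, by 0.67 to 3.10. Without fetus 11 the latter was higher in 3 of them and lower in 1, from −0.48 in LV to 2.71 in BFM. RV is set apart since SNORD52 was chosen by its lower level there, and all 5 tissues come from the same fetuses. In RV, the contrast in which the study lists it, SNORD52 was at 9.49, 7.66 and 7.67 in the EG controls. The EG exposed fetuses were at 6.32, 6.56 and 6.48. Every exposed fetus lay below every control, and the exposed values were close together whereas control fetus 1 stood far above the other two. The log2 fold change was −1.82 (SE 0.58), a 3.53-fold lower level, and 0.615% of the 12031 transcripts tested in RV in EG met the criteria, while 18.6% had groups without overlap.

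In BFM, a tissue outside the study's tables, the SNORD52 values of the EG controls were 9.44, 6.50 and 7.62. The EG exposed fetuses had 5.80, 5.78 and 5.99. The groups did not overlap, and again the exposed fetuses were close together while fetus 1 was the highest control. SNORD52 fell in EG BFM with BPA by 1.99 on the log2 scale (SE 0.61), 3.98-fold, at an adjusted p of 1.00 (limma). That comparison was called, as were 0.267% of the 8609 transcripts tested, while groups without overlap were found for 11.6%. The call ended when any of 9 of the 12 fetuses was left out, and the value moved most without fetus 1, to −1.20 (SE 0.45).

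The EG differences of SNORD52 in the other 3 tissues were not called. In LV, the EG controls were at 9.56, 8.99 and 6.67 and the exposed fetuses at 5.99, 7.56 and 6.47. The LA values were 9.45, 5.72 and 8.09 in the controls and 7.25, 5.49 and 6.41 in the exposed fetuses. In RA, the controls had 9.92, 7.30 and 8.35 and the exposed fetuses 8.15, 6.50 and 7.39. The groups overlapped in all 3, with log2 fold changes of −1.73 (SE 1.20) in LV, −1.37 (SE 0.84) in LA and −1.18 (SE 0.70) in RA. The criteria were met by 0.925% of the transcripts in LV, 0.582% in LA and 0.439% in RA. Without control fetus 1 the EG difference stayed below 0 in these 3 tissues and in BFM, at −1.20 to −0.48.

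In LG, the BPA difference of SNORD52 was not called in any of the 5 tissues, with 1 of 5 at an unadjusted p under 0.05 (limma) and 0.439% to 1.09% of all transcripts called, and ran from −0.48 in LA to 1.76 in BFM. In BFM the LG controls were at 6.87, 7.28 and 7.46 and the exposed fetuses at 8.98, 9.76 and 8.15. Here the groups did not overlap, in the direction opposite to EG, as did those of 6.18% of the BFM transcripts, and the log2 fold change of 1.76 (SE 0.61) had an adjusted p of 0.827 (limma). RV had 7.95, 7.79 and 6.76 in the LG controls and 7.24, 9.32 and 8.72 in the exposed fetuses, a log2 fold change of 0.93 (SE 0.58). The LV values were 5.34, 9.04 and 6.36 in the controls and 7.03, 9.64 and 5.37 in the exposed fetuses. LA had 8.17, 8.29 and 7.55 in the controls and 6.60, 9.35 and 6.64 in the exposed fetuses. In RA they were 6.92, 8.55 and 7.30 in the controls and 7.83, 9.80 and 8.11 in the exposed fetuses. Exposed fetus 11 was the highest of these 6 fetuses in every tissue. Without it the LG difference was above 0 in 3 tissues and below 0 in 2, from −1.38 to 1.36.

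**Figure D2:**
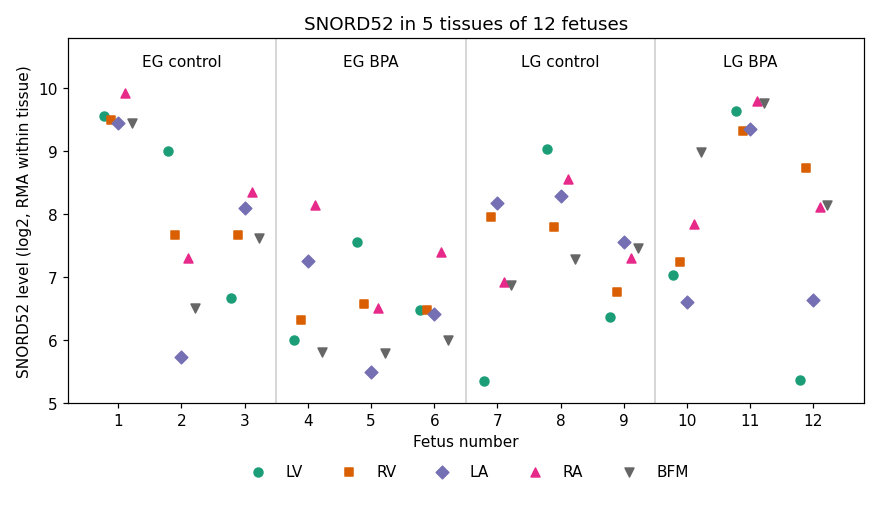
SNORD52 level (log2, normalized within each tissue) of each of the 12 fetuses, with 1 symbol per tissue (LV, RV, LA, RA and BFM) and vertical lines between the 4 groups. Fetus 1, an EG control, and fetus 11, an LG exposed fetus, had the 2 highest values in all 5 tissues, at 9.44 to 9.92 and 9.32 to 9.80.

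Between EG and LG, the SNORD52 change of control fetuses was not called in any of the 4 tissues other than RV, with log2 fold changes from −1.50 in LV to 0.25 in LA and 2.95% (LV) to 26.6% (BFM) of all transcripts called. RV, whose EG controls are part of the listed contrast, had −0.77 (SE 0.58). In exposed fetuses of BFM it rose by 3.10 on the log2 scale (SE 0.61), 8.60-fold, from 5.86 ± 0.12 to 8.96 ± 0.80 (SD, n = 3). All LG exposed fetuses lay above all EG exposed fetuses. The adjusted p was 0.00228 (limma), and without fetus 11 the change was 2.71. BFM differed between EG and LG in a large part of its transcripts: 23.1% met the study's criteria, 49.5% had an adjusted p of at most 0.05 and 57.2% had groups without overlap. The BFM call of SNORD52 is thus 1 among many in that tissue. RV exposed fetuses, whose EG group is part of the listed contrast, were at 1.98 (SE 0.58) with no overlap between the groups, against a share of 6.49% called and 32.6% without overlap in RV. In LV, LA and RA the change in exposed fetuses was 0.67 (SE 1.20), 1.15 (SE 0.84) and 1.24 (SE 0.70), none of them called, while 7.31% of the LA transcripts and 5.91% of the RA transcripts were.

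The difference between the LG and the EG effect of BPA on SNORD52 was above 0 in the 4 tissues other than RV, at 0.90 to 3.75. In LA the value was −0.01 without fetus 11 and 0.05 without fetus 1. In BFM it was 3.75 (SE 0.86), and met the criteria in limma at an adjusted p of 0.999. In BFM 0.499% of the transcripts met them for this difference. RV had 2.75 (SE 0.82), a value that contains the listed effect. In LV, LA and RA it was 2.17 (SE 1.69), 0.90 (SE 1.19) and 2.17 (SE 0.98), none of them called. The shares of transcripts called for this difference were 1.17% in LV, 0.515% in RV, 1.23% in LA and 0.332% in RA.

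SNORD74, from GAS5, was chosen by its difference between exposed and control fetuses in LV in EG, the contrast in which the study lists it. Outside that contrast and its groups, 0 of its 17 comparisons were called (limma), where 0.267% to 26.6% of all transcripts were. In LV, the EG controls were at 7.81, 11.85 and 9.49. The EG exposed fetuses were at 6.41, 5.48 and 5.99. All 3 lay below the lowest control, and the controls were spread widely. The log2 fold change was −3.76 (SE 0.93), 13.6-fold lower, and 0.925% of the 17628 transcripts tested in LV met the criteria in EG, while 10.7% had groups without overlap. Control fetus 2, with the highest SNORD74 value of LV, also had the lowest correlation with the other LV arrays (median r 0.858).

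The SNORD74 values in LG were closer together in LV. The LG controls were at 7.00, 6.15 and 8.57 and the exposed fetuses at 8.96, 7.54 and 7.84, which overlap, with a log2 fold change of 0.88 (SE 0.93). In the exposed fetuses of LV, SNORD74 was 2.15 (SE 0.93) higher in LG than in EG with no overlap, as for 21.2% of the LV transcripts. In controls it was 2.48 lower (log2 fold change −2.48, SE 0.93) with overlapping groups. Both of these share an EG group with the listed contrast and are given without a test. The LG minus EG difference of the BPA effect in LV, 4.64 (SE 1.31), contains the listed effect.

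**Figure D3:**
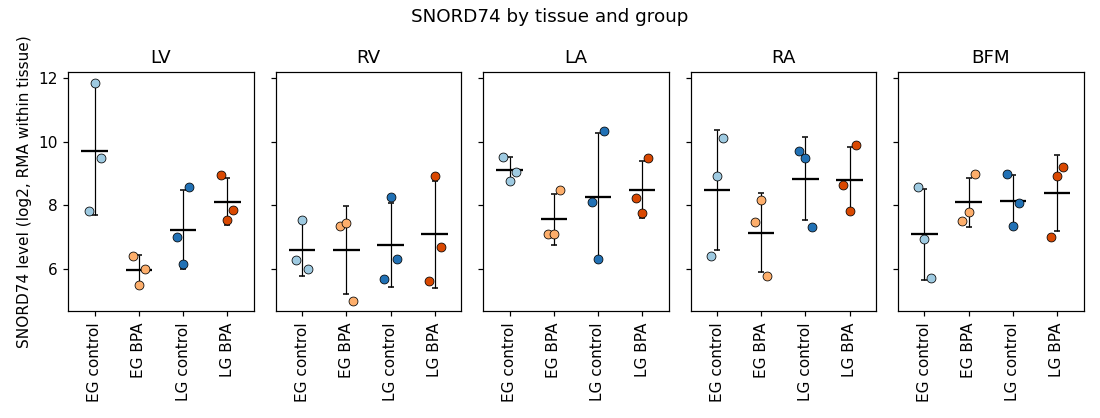
SNORD74 level (log2, normalized within each tissue) per fetus in the 4 groups of each tissue, with the mean as a bar and the SD as a whisker (n = 3). The EG exposed fetuses of LV lie between 5.48 and 6.41, below all EG controls, while in RV the group means lie between 6.61 and 7.09.

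In the other tissues SNORD74 had no call. In RV, the EG controls had 6.28, 7.55 and 6.00 and the exposed fetuses 7.36, 7.45 and 5.00. The 2 means were nearly equal (log2 fold change −0.00, SE 0.87), with a 95% confidence interval from −1.86 to 1.85. LA had 9.53, 8.77 and 9.06 in the EG controls and 7.10, 7.09 and 8.49 in the exposed fetuses. Here the exposed fetuses all lay below the controls, as for 9.07% of the LA transcripts in either direction, but the log2 fold change of −1.56 (SE 0.77) had an adjusted p of 1.00 (limma) and was not called, which held for all but 0.582% of the transcripts. RA had 6.42, 8.93 and 10.11 against 7.48, 8.16 and 5.76, a log2 fold change of −1.35 (SE 0.91). In BFM the EG controls were at 8.59, 6.95 and 5.72 and the exposed fetuses at 7.50, 7.79 and 8.98. That gave the 1 EG value of SNORD74 above 0, 1.00 (SE 0.77).

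In LG, the BPA difference of SNORD74 lay between −0.05 in RA and 0.88 in LV, and the groups overlapped in all 5 tissues. The LG controls of RV were at 5.69, 8.25 and 6.32 and the exposed fetuses at 5.63, 8.93 and 6.70. LA had 8.10, 6.32 and 10.33 against 8.25, 7.75 and 9.50. RA had 9.72, 9.48 and 7.32 against 8.65, 7.82 and 9.90. Fetuses treated alike were thus far apart, the LA controls by 4.01. The BFM values were 8.99, 7.36 and 8.08 in the controls and 7.02, 8.93 and 9.21 in the exposed fetuses. From EG to LG, the SNORD74 level of controls changed by −2.48 in LV to 1.06 in BFM and that of exposed fetuses by 0.29 in BFM to 2.15 in LV, and 0 of the 8 changes outside LV were called, against 5.47% (RA controls) to 26.6% (BFM controls) of all transcripts. Of the 17 comparisons of SNORD74 outside the listed contrast and its groups, 0 had an unadjusted p under 0.05 (limma).

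SNORD81, also from GAS5, was at the lower end of the LV arrays in the LG exposed fetuses. The LG controls of LV were at 5.87, 5.24 and 3.68. The LG exposed fetuses were at −1.15, 0.05 and −1.18. In the study's listed contrast the groups were far apart, at a log2 fold change of −5.68 (SE 1.66), where 0.84% of the LV transcripts met the criteria and 8.21% had groups without overlap. The values of all 3 exposed fetuses were the lowest of their arrays to within 0.001, a value that many other transcripts of an LV array shared, so in these 3 fetuses the level is known only to lie at that lower end. With all values raised to the highest of the 12 array minima, the log2 fold change was −4.30 (SE 1.32). On the same arrays MYH6 was at 14.16, 14.43 and 14.19 in the LG controls and at 7.62, 13.45 and 5.56 in the exposed fetuses, and its part in the SNORD81 difference was not tested.

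EG control fetus 1 was also near the lower end of its LV array, at a percentile of 0.501, and stood far below the other EG controls. The EG controls were at −1.04, 7.58 and 5.68 and the exposed fetuses at 6.36, 5.68 and 5.72. The 3 exposed values were close together and lay inside the range of the controls, with a log2 fold change of 1.85 (SE 1.66), not called, and of −0.71 without fetus 1. In the exposed fetuses of LV, SNORD81 was lower in LG than in EG by a log2 fold change of −6.68 (SE 1.66), and by −5.29 (SE 1.32) with low values raised. The groups did not overlap, as for 21.2% of the LV transcripts. This shares the LG exposed group with the listed contrast, and 3.59% of the LV transcripts met the criteria there. The controls of LV gave 0.86 (SE 1.66), and without fetus 1 they gave −1.70. The LG minus EG difference of the BPA effect in LV, −7.53 (SE 2.35), contains the listed effect, and without fetus 1 it was −4.98.

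**Figure D4:**
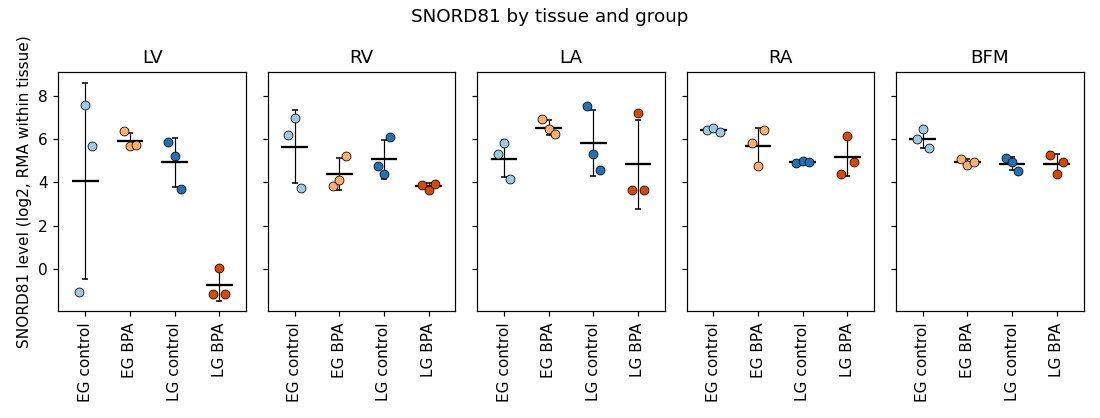
SNORD81 level (log2, normalized within each tissue) per fetus in the 4 groups of each tissue, with the mean as a bar and the SD as a whisker (n = 3). The 3 LG exposed fetuses of LV and EG control fetus 1 of LV lie at or below 0.05, and the other LV values at or above 3.68.

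In RV, LA, RA and BFM no SNORD81 value was the lowest of its array. In RV, the LG controls were at 4.74, 4.39 and 6.09 and the exposed fetuses at 3.90, 3.65 and 3.90. All exposed fetuses lay below the controls, as for 4.51% of the RV transcripts in either direction, with a log2 fold change of −1.26 (SE 0.69) that was not called (adjusted p of 1.00, limma), where 0.549% were. The EG values of RV were 6.20, 6.99 and 3.76 in the controls and 3.84, 4.10 and 5.20 in the exposed fetuses, a log2 fold change of −1.27 (SE 0.69). Control fetus 3 lay below all exposed fetuses while the other two controls lay above them, and without fetus 3 the value was −2.21 and met the criteria, with an adjusted p of 1.00 (limma).

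In LA the direction was the other way in EG. The EG controls were at 5.31, 5.82 and 4.17 and the exposed fetuses at 6.92, 6.47 and 6.22. All 3 exposed fetuses were above the controls, with a log2 fold change of 1.44 (SE 0.87) that was not called. Groups without overlap were found for 9.07% of the LA transcripts in either direction, and 0.582% were called. In LG the LA controls had 7.54, 5.32 and 4.58 and the exposed fetuses 3.67, 7.22 and 3.64. Exposed fetuses 10 and 12 were near the lower end of their arrays, at percentiles of 0.688 and 0.493. Exposed fetus 11 stood far above them. With it the log2 fold change was −0.97 (SE 0.87). Without it the value was −2.16 and met the criteria, at an adjusted p of 0.537 (limma), where 1.09% of the LA transcripts were called with all fetuses.

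Among the controls, SNORD81 was lower in LG than in EG in 3 tissues and higher in 2. The changes in RA and BFM, both lower in LG, were called, and those of −0.57 (SE 0.69) in RV and 0.72 (SE 0.87) in LA were not. With 1 fetus left out, RV ran from −1.52 to 0.10 and LA from −0.14 to 1.33. LV, at 0.86 and at −1.70 without fetus 1, shares a group with the listed contrast. In RA the EG controls were at 6.40, 6.51 and 6.33 and the LG controls at 4.92, 5.00 and 4.94, each group within a narrow range and neither overlapping the other. SNORD81 fell by 1.46 on the log2 scale in RA (SE 0.47), at an adjusted p of 0.157 (limma). This call ended when any of 8 of the 12 fetuses was left out, with values from −1.50 to −1.41. In the RA controls 5.47% of the 9329 transcripts met the criteria and 17.5% had groups without overlap. The RA exposed fetuses were at 5.81, 4.74 and 6.43 in EG and 4.41, 6.13 and 4.94 in LG, which overlap, with a log2 fold change of −0.50 (SE 0.47).

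In BFM the EG controls had 6.02, 6.47 and 5.57 and the LG controls 5.12, 4.95 and 4.53. SNORD81 fell by 1.15 on the log2 scale (SE 0.27) from EG to LG in BFM controls, at an adjusted p of 0.0106 over all transcripts (limma), where 8.93% of the 26149 met the criteria and 18.2% had an adjusted p of at most 0.05. Without fetus 2 the change was −0.93 and without fetus 9 −0.99, both short of the fold the criteria ask for. The controls did not overlap, as for 59.2% of the BFM transcripts that passed the filter. The EG exposed fetuses of BFM were at 5.07, 4.82 and 4.93. All lay below the EG controls, as for 11.6% of the BFM transcripts that passed the filter in either direction, and SNORD81 fell with BPA in EG BFM by 1.08 on the log2 scale (SE 0.27), at an adjusted p of 1.00 (limma), where 0.111% met the criteria. Without fetus 2 it was −0.85 and not called. The LG exposed fetuses were at 5.26, 4.38 and 4.96, with a log2 fold change against LG controls of 0.00 (SE 0.27), not called, where 0.337% were, and against EG exposed fetuses of −0.07 (SE 0.27), not called, where 7.77% were. The EG controls were thus the 1 group of BFM that stood above the others. These levels are close to the lower end of the BFM arrays, whose minima were 4.22 to 4.29.

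The EG BFM comparisons of SNORD81 and SNORD52 use the same 6 arrays, and both had an adjusted p of 1.00 (limma). SNORD74 in the same arrays was at a log2 fold change of 1.00 (SE 0.77).

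The effects were also set against each other between the 2 ventricles and between the 2 atria, in fits over 24 arrays. For SNORD81 the LG minus EG change of exposed fetuses was 6.12 lower in LV than in RV (difference −6.12, SE 1.90), a value that contains the LV group of the listed contrast, against 0.93% of 20438 transcripts that met the criteria. The LV exposed values of LG were at the array minimum and those of RV at percentiles of 0.463 to 2.57, near a minimum of 3.24 to 3.35, so the size depends on the lower ends of the arrays of both tissues. With low values raised within each tissue, an alternative chosen after seeing the data, it was −4.73 (SE 1.58). For SNORD52 the LG effect of BPA was lower in LA than in RA by a difference of −1.47 (SE 1.21), not called without the pairing. With the fetus as a block, which pairs the chambers of an animal, the SE was 0.46 and the difference met the criteria at an adjusted p of 0.989 (limma). Of the 15 comparisons between chambers outside the listed contrasts and their groups, 0 met the criteria without the block and this 1 with it, and an unadjusted p under 0.05 was reached by 0 and 4 (limma), the 4 all between LA and RA. The block also raised the shares of all transcripts between LA and RA. With it the criteria were met by 0.896% in the change of controls, 0.854% in the change of exposed fetuses and 0.566% in the EG and in the LG effect. An unadjusted p under 0.05 was found there without and with the block for 2.86% and 5.02% (controls), 2.77% and 4.67% (exposed fetuses), 2.16% and 3.51% (EG effect) and 2.06% and 3.68% (LG effect). Between LV and RV the block left the shares of the EG and LG effects nearly as they were. By the criteria they were 0.944% (EG) and 0.802% (LG) with it. By an unadjusted p under 0.05 they were 5.24% and 5.19% without and with it (EG) and 3.37% and 3.70% (LG). In the change of controls between LV and RV, the block lowered the share by the criteria from 2.09% to 1.52%. Among all transcripts and without the block, LV and RV differed by these criteria in the change of controls for 2.09%, in the EG effect for 0.993% and in the LG effect for 0.753%. LA and RA differed for 0.465% in the change of controls, 0.566% in the change of exposed fetuses, 0.397% in the EG effect and 0.347% in the LG effect. For SNORD81 the widest of the 15 was the EG effect of BPA in LV minus that in RV, at 3.11 (SE 1.90), and without fetus 1 it was 0.28.

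Whether a fetus with a high level in 1 tissue had it in the others was read from the deviations of each fetus from its group mean. The deviations of SNORD52 had an r above 0 in all 10 pairs of tissues, 4 of which include RV, where it was chosen. Single fetuses still lay high in 1 tissue and low in another. For SNORD74 and SNORD81, r lay on both sides of 0. The median Pearson r over the 10 pairs was 0.592 for SNORD52 (0.32 to 0.90), −0.109 for SNORD74 (−0.60 to 0.39) and 0.145 for SNORD81 (−0.33 to 0.51). Over all 26149 transcripts the median of this measure was 0.0839, and SNORD52 ranked 642. The median Spearman rho of SNORD52 was 0.545 (0.22 to 0.90). The closest pair was LA with RA, with r 0.904 and rho 0.902 over 12 fetuses (exact permutation within groups, two-sided, p = 0.00386 for both, adjusted p = 0.174 over 45 relations). None of the 45 relations, over pairs of tissues and pairs of snoRNAs, reached an adjusted p of 0.05 in these permutation tests, and 2 had an unadjusted p under 0.05. Without the 2 fetuses farthest from the median, r for LA with RA was 0.859 and the median of the 10 pairs 0.432 (−0.01 to 0.86).

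**Figure D5:**
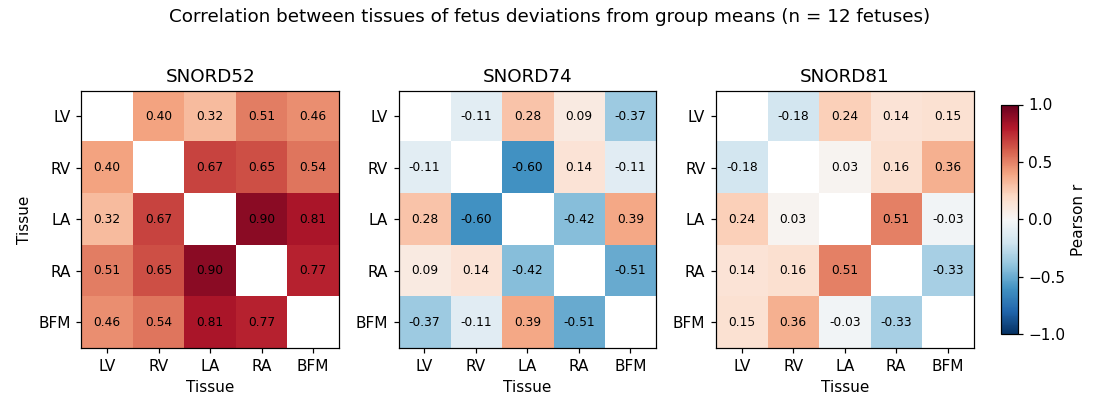
Pearson r between 2 tissues of the deviations of the 12 fetuses from their group means, for each snoRNA (colour scale from −1 to 1, the same tissue left blank). All 10 values of SNORD52 are above 0, and those of SNORD74 and SNORD81 lie on both sides of 0.

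Fetuses 1 and 11 carried much of the SNORD52 pattern. Fetus 1 lay 1.83 to 2.23 above the mean of all 12 fetuses in the 5 tissues and fetus 11 lay 1.66 to 2.30 above it. The next highest mean over the tissues was that of LG control fetus 8, at 0.61, with a range from −0.19 to 1.70. No other fetus was above that mean in each of the 5 tissues, and EG exposed fetus 6 was below it in all 5, by a mean of −1.03. RV, where fetus 1 belongs to the higher group of the listed contrast, is 1 of these tissues. Without fetuses 1 and 11 the median r of SNORD52 was 0.262 (−0.18 to 0.81), and LA with RA had 0.811.

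SNORD74 and SNORD81, although both lie in introns of GAS5, had no common direction across fetuses in the 5 tissues. Their r was below 0 in 4 tissues, at −0.44 in RA, −0.39 in LA, −0.12 in RV and −0.02 in BFM, and above 0 in LV (r 0.59, rho 0.23). The LV value was reached with fetus 1 low and fetus 2 high for both, and without the 2 fetuses farthest from the median it was −0.55. SNORD52 with SNORD74 had r from −0.47 to 0.33 and with SNORD81 from −0.45 to 0.54. In none of the 15 pairs was the adjusted p of the exact permutation test below 0.652.

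The other rows that the study's tables name for a GAS5 snoRNA were a second SNORD74 row (ENSMMUT00000035047), SNORD77 (ENSMMUT00000049023) and SNORD78 (ENSMMUT00000048423). The second SNORD74 row had a mean r over the 5 tissues of 0.08 with the first, from −0.38 to 0.78. In LV in EG, the contrast that lists the first row, the second was at 6.21, 10.02 and 5.87 in the controls and at 5.32, 3.36 and 4.70 in the exposed fetuses. All exposed fetuses lay below all controls and fetus 2 was the highest, as for the first row on the same arrays and, for the groups, as for 10.7% of the LV transcripts, with a log2 fold change of −2.91 (SE 0.96) that was not called (adjusted p of 0.982, limma). SNORD78 had a mean r of −0.23 with SNORD74 and 0.01 with SNORD81. SNORD77 had −0.13 with SNORD74 and −0.17 with SNORD81, and 0.22 with SNORD52, which has another host. Each of these 3 rows is itself listed by the study, the second SNORD74 row and SNORD77 in RV in LG and SNORD78 in LA in LG. Of their 51 comparisons outside those contrasts and their groups, 1 was called, lower in LG, and 0 higher (limma). In it, SNORD77 fell by 1.53 on the log2 scale from EG to LG in RA exposed fetuses (SE 0.46, adjusted p of 0.111, limma), where 5.91% of RA transcripts were called. In RV the SNORD77 change of exposed fetuses, which shares a group with its listed contrast, was 0.98 (SE 0.34), and in the listed contrast it was at a mean of 4.23 in the LG controls and 6.27 in the exposed fetuses. The change of RA exposed fetuses was −0.50 (SE 0.47) for SNORD81 and 1.66 (SE 0.91) for SNORD74.

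Within the list of snoRNAs of the study's tables, which the study chose on these samples, SNORD52 varied most like U3 (mean r 0.336 over the 5 tissues), R38 (0.280) and a SNORA25 row (0.269). Of all transcripts, 96.1%, 92.3% and 91.4% had a lower mean r with SNORD52 than these 3, which are the highest of 40 rows. U3 is the box C/D snoRNA that takes part in cleavage of the ribosomal RNA precursor. SNORD74 varied most like SNORA9 (0.334), SNORD111 (0.264) and SNORD45 (0.176), and SNORD81 most like a SNORD115 row (0.445), SNORD50 (0.372) and a row named SNORA3/SNORA45 (0.298). The corresponding shares were 99.0%, 96.7% and 89.3% for SNORD74 and 99.8%, 99.0% and 97.0% for SNORD81. Over all transcripts the highest mean r with SNORD52 was 0.643 for ENSMMUT00000019902, followed by 0.638 for ENSMMUT00000024075 and 0.638 for ENSMMUT00000032911. SNORD74 had 0.610 with ENSMMUT00000009625, 0.590 with ENSMMUT00000013188 and 0.575 with ENSMMUT00000038137. SNORD81 had 0.625 with ENSMMUT00000001186, 0.615 with ENSMMUT00000048741 and 0.597 with ENSMMUT00000042228. None of these 9 rows has a name in the tables used here, and they are the 3 highest of 26149 for each snoRNA, over 12 arrays per tissue.

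For the gestational changes, the 38 other snoRNAs of the tables are given as a description. The study listed them by BPA against control in the heart chambers, so the control groups counted there helped to choose them. Their shares in the chambers thus cannot be set against those of all transcripts as a test. In controls, the calls were 5 of 20 tested in BFM, all lower in LG, 4 of 31 in RV, 3 of 28 in LA, 3 of 37 in LV and 0 of 30 in RA. In RA 2 of the 30 had an unadjusted p under 0.05 (limma). Over all transcripts the share was highest in BFM, at 26.6%, followed by LA (6.78%), RV (6.68%), RA (5.47%) and LV (2.95%). The list's median log2 fold change was −0.38 in BFM (all transcripts −0.03), −0.30 in LA (−0.02), −0.29 in RA (0.09), −0.11 in LV (−0.08) and 0.34 in RV (0.09). For BPA in BFM, on which the study's tables hold no list, 0 of 20 were called in EG and 1 of 20 in LG, against 0.267% and 0.825% of all transcripts, and in EG 0 of the 20 had an unadjusted p under 0.05 (limma). No snoRNA of the list was called in the controls of 3 or more tissues.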

How the data were processed

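Transcript levels of SNORD52, SNORD74 and SNORD81 were taken from the log2 values that the authors deposited for 60 custom NimbleGen arrays designed from Ensembl transcripts of the rhesus build Mmul_1. Small RNAs had a single probe or a pair of probes, and which was not checked here. Per the study's methods, the arrays were background corrected and quantile normalized within each tissue, and probes were summarized by median polish (RMA). Scanner intensities were not used here, so how far a level lay above background is unknown, and the precision is limited by how many arrays there are. RMA within a tissue removes differences in overall signal between its arrays, and whether PCR amplification of the atrial cDNA changed differences there was not tested.

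The members and lists were chosen with earlier results of these data known. Names came from the study's tables, no sequence of the snoRNAs was at hand, and which genomic copy each row measures was not checked. The named rows are the 3 snoRNAs, the other GAS5 rows, list snoRNAs called in the controls of at least 3 of 5 tissues or among the 3 most alike to a member, and per member the 3 rows of the whole table with the highest mean r.

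A transcript was tested in a tissue where its interquartile range over that tissue's 12 arrays reached 0.5, which left 17628 (LV), 12031 (RV), 7903 (LA), 9329 (RA) and 8609 (BFM) transcripts. For each tissue limma 3.58.1 (lmFit, contrasts.fit and eBayes, under R 4.3.3) fitted the 4 group means. A call needed a log2 change of 1 or more in either direction with p, before adjustment, no higher than 0.01, and Benjamini-Hochberg adjusted p is given beside it. SNORD81 in BFM was read from a fit without the filter. The limma p-values set a difference against the spread between fetuses, pooled over the 4 groups and moderated over the transcripts fitted. Intervals are at 95%. An exact permutation test of 3 against 3 fetuses has 10 splits and a smallest p of 0.1, so it could not reach the threshold. Co-variation was tested by exact permutation within groups (1296 orders) in Python 3.11.15 with pandas 2.3.3 and numpy 2.4.6. The fits were tested on simulated data.

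A fetus number marks the same animal in every tissue, which pairs samples of different tissues. Within a tissue each fetus has 1 array. All 60 columns were matched to a sample by name. Alternatives were no filter, a filter on dim transcripts, only the arrays compared, trend and robust settings, median centring, a further quantile normalization, low values raised, an adjusted p of at most 0.05, each fetus left out, the fetus as a block, and, added after the data were seen, co-variation without fetuses 1 and 11 and low values raised in the differences between chambers.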

Additional observations from a re-analysis of the deposited data

Results flagged for a closer look

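The BPA effect in LG and that in EG were compared in a fit of the difference itself. In BFM the SNORD52 difference was 3.75 on the log2 scale (SE 0.86) and met the study's criteria, as for 0.499% of the BFM transcripts, at an adjusted p of 0.999 (limma). It kept its sign when any 1 fetus was left out, from 2.95 to 4.43. In 3 further cases the difference contains the contrast by which the snoRNA was chosen, so it is given as a value with no test. These are SNORD74 in LV at 4.64 (SE 1.31), SNORD81 in LV at −7.53 (SE 2.35) and SNORD52 in RV at 2.75 (SE 0.82). For SNORD81 in LV, all 3 LG exposed fetuses were at the lowest value of their arrays, and with low values raised the difference was −5.59.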

How the results depend on the processing

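No log2 value of the 3 snoRNAs that had a call changed sign under the alternatives tried, while calls did change. When the study's criteria were replaced by an adjusted p no higher than 0.05 (limma), SNORD81 in RA controls from EG to LG (−1.46), SNORD52 (−1.99) and SNORD81 (−1.08) in BFM for BPA in EG and SNORD52 in BFM for the LG minus EG difference of the BPA effect (3.75) were not called. Over all transcripts, in the order gestational change of controls, gestational change of exposed fetuses, BPA in EG, BPA in LG and LG minus EG difference, that threshold was met by 0, 58, 0, 1 and 0 transcripts of LV. RV had 238, 194, 0, 0 and 0, LA had 197, 235, 0, 0 and 0, RA had 187, 231, 0, 0 and 0, and BFM had 4505, 4263, 0, 1 and 0. The study's criteria were met by 520, 633, 163, 148 and 207 of LV. RV had 804, 781, 74, 66 and 62, LA had 536, 578, 46, 86 and 97, RA had 510, 551, 41, 41 and 31, and BFM had 2292, 1988, 23, 71 and 43. With no filter on variation the LG minus EG difference was called for 212 transcripts (LA), 129 (RV), 83 (RA) and 72 (BFM), and BPA in EG for 63 (RA).

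With only the arrays of the groups compared, SNORD74 (−1.56) and SNORD81 (1.44) in LA for BPA in EG and SNORD52 in BFM for BPA in LG (1.76) were called, and SNORD52 in BFM for BPA in EG (−1.99) was not. Leaving out 1 fetus at a time moved the following values or calls. For SNORD52 the BPA effect in EG ran from −2.39 to −0.52 in LA (called without fetus 2) and from −2.67 to −1.20 in BFM (not called without fetus 1, 3, 4, 5, 6, 7, 8, 9 or 10), and that in LG from 1.36 to 2.16 in BFM (called without fetus 1, 2 or 12). For SNORD74 in LA the change of controls ran from −1.91 to 0.10 and the LG minus EG difference from 0.84 to 2.84, both called without fetus 9. For SNORD81 in LA the change of exposed fetuses ran from −2.88 to −1.09, the BPA effect in LG from −2.16 to −0.11 and the LG minus EG difference from −3.60 to −1.55, all called without fetus 11. The LG exposed fetuses that then remain in LA were near the lower end of their arrays. For SNORD81 the BPA effect in EG in RV ran from −2.21 to −0.60 (called without fetus 3) and the change of RA controls from −1.50 to −1.41. In BFM, in fits without the filter, the SNORD81 change of controls ran from −1.38 to −0.93 (not called without fetus 2 or 9), the BPA effect in EG from −1.31 to −0.85 (not called without fetus 2) and the LG minus EG difference from 0.86 to 1.33 (called without fetus 3 or 11). In LV the SNORD81 change of controls ran from −1.70 to 2.61, the LG minus EG difference from −9.28 to −4.98 and the LV minus RV difference of the change of controls from −1.40 to 3.17, each moved by fetus 1.

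With the fetus as a replicate block, SNORD52 in LA minus RA for BPA in LG (−1.47, SE 0.46) was called, and the pairing changed no other call. With low values raised, chosen after seeing the data for differences between chambers, SNORD81 in LV minus RV for the change of exposed fetuses was −4.73, and its LG minus EG difference in LV was −5.59. The median r of SNORD74 with SNORD81 was −0.118 over 12 fetuses and −0.538 without the 2 farthest from the median. That of SNORD52 between tissues was 0.592, and 0.262 without fetuses 1 and 11, an alternative chosen after seeing the data. With 3 fetuses per group, the 95% confidence interval of the SNORD74 effect of BPA in RV in EG ran from −1.86 to 1.85, and the number of arrays limits what could be detected.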
